A study of Homo sapiens with 12 samples.

Results

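A set of 37 nuclear genes for aminoacyl-tRNA synthetases was followed in HEK293 cells that expressed forms of PEG10 or a control protein. They were taken from the count table by symbol alone, as every row that matched a fixed pattern of synthetase symbols. The pattern leaves out *TARSL2*, which is counted below among genes that edit mischarged tRNA or resemble synthetases. No measured value chose single members, but the family was followed with earlier results of these data known. The table holds 26485 genes, 17176 of these were tested after a filter on low counts, and all 37 synthetase genes passed that filter. Of the 37 genes, 20 encode cytosolic enzymes or their subunits, and 17, with symbols that end in 2, encode mitochondrial enzymes. The table uses older symbols, which are kept here, so that *AARS* stands for the gene now called AARS1, *EPRS* for EPRS1 and likewise for the other cytosolic genes except *FARSA* and *FARSB*.

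Poly(A) RNA was sequenced from HEK293 cells, an established human embryonic kidney line of wild-type genotype, transfected with plasmids for 1 of 4 proteins. The groups were PEG10 gag-pol, PEG10 gag, PEG10 NC, which is the nucleocapsid stretch of gag, and a control, HA-tagged LifeAct-Dendra2, a fluorescent actin marker. Each group held 3 libraries, numbered as replicates 1 to 3, for 12 in all, and a library is named by both, so that control 3 is replicate 3 of the control. Per the study's methods, 1 µg of plasmid was used and RNA was taken 48 hr after transfection, so that each protein was expressed transiently. PEG10 is a gene of retrotransposon origin whose gag-pol form is made by a ribosomal frameshift, and the comparison of the constructs asks which form of the protein changes the transcriptome.

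Aminoacyl-tRNA synthetases join each amino acid to its tRNA, the step that sets the genetic code in translation. Cytosolic and mitochondrial protein synthesis mostly use separate enzymes, but *GARS* and *KARS* each encode both the cytosolic and the mitochondrial form. In the cytosol several synthetases sit together in the multisynthetase complex, on the scaffold proteins encoded by *AIMP1*, *AIMP2* and *EEF1E1*. Many cytosolic synthetase genes are targets of ATF4, the transcription factor of the amino acid response, which binds the C/EBP-ATF response element.

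Library totals ran from 30625725 to 45316749 counts, and the synthetase genes took 0.517% to 0.774% of them. The lowest raw count of any synthetase gene in any library was 255, and counting error weighs more on such genes than on the abundant ones. *PEG10*, the transfected gene, took 0.0230% to 0.0346% of counts in control libraries, 0.238% to 0.389% with NC, 2.80% to 7.35% with gag-pol and 3.78% to 6.10% with gag. The PEG10 constructs differ in length, NC being the shortest and gag-pol the longest, and these shares are not scaled for it. After the construct means were removed, libraries with the same replicate number were positively correlated across constructs. Those with different numbers had lower or negative correlations, which removing the means itself brings about when the former are positive. The replicate number was therefore a term of the model, and without it no synthetase gene was called in the 7 comparisons of constructs (0 to 5 at an unadjusted p under 0.05 in edgeR's quasi-likelihood test). Of all 17176 genes tested at most 2 were called without it in any of these comparisons. The series design names independent passages of the cells but does not tie a number to a date. The p-values below set a difference against the spread left in these samples after construct and replicate number were fitted. They do not take in the spread between replicate numbers.

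The promoters of the synthetase genes were read first for the element that ATF4 binds, because the amino acid response is the best known control of these genes. RefSeq promoter windows of 300 bases on GRCh38.p14, from 250 bases before to 50 bases from the transcription start, were at hand for 30 of the 37 genes, with 39 windows in all. Those without a window included *LARS*, *VARS* and *YARS*. The core TGATGNAA was searched on both strands, and most of the matches below show it in reverse. It stood in 7 of 16 cytosolic genes and in 1 of 14 mitochondrial genes, *YARS2*. By windows, 8 of 39 (20.5%) held it, against 3.62% of all 35116 windows in the table. The 7 cytosolic genes, *AARS*, *CARS*, *GARS*, *IARS*, *MARS*, *NARS* and *TARS*, are all on the list of ATF4 targets taken from textbook knowledge. The matches are printed 5′ to 3′ on the strand of the gene with 11 bases on each side, and capitals mark the match.
*AARS*: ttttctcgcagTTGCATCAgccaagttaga
*CARS*: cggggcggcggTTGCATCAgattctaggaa
*GARS*: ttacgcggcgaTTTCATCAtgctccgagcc
*IARS*: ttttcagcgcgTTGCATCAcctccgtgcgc
*MARS*: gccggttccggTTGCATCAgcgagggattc
*NARS*: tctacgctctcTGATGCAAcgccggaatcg
*TARS*: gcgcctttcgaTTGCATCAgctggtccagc
*YARS2*: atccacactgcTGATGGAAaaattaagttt
On GRCh38.p14 the stretches lie at chr16:70289675-70289704 (AARS, reverse strand), chr11:3057407-3057436 (CARS, reverse strand), chr7:30594834-30594863 (GARS, forward strand), chr9:92293692-92293721 (IARS, reverse strand), chr12:57488053-57488082 (MARS, forward strand), chr18:57621804-57621833 (NARS, reverse strand), chr5:33440956-33440985 (TARS, forward strand), chr12:32756076-32756105 (YARS2, reverse strand). A second core, GCGCANGCG, which the factor NRF1 binds, was searched on both strands in the same windows. It stood in *FARSB*, *SARS* and *TARS* among the cytosolic genes and in *IARS2*, *MARS2* and *PARS2* among the mitochondrial genes. By windows, 8 of 39 (20.5%) held it, against 7.52% of all. A match is a stretch of letters and no measure of binding.

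The cytosolic synthetase RNAs were more abundant than the mitochondrial ones. Levels are given as normalized CPM (counts scaled to a common library size) per kilobase (kb) of the Ensembl canonical transcript, so that genes of different length can be set side by side. The median over genes was 91.3 for the 20 cytosolic genes and 16.7 for the 17 mitochondrial genes, each gene taken as its mean over the 12 libraries. The summed counts of the cytosolic genes were 4.42 to 5.03 times those of the mitochondrial genes in the 12 libraries. The 3 gag-pol libraries had the lowest ratios, 4.42, 4.53 and 4.48 in replicates 1, 2 and 3, and none overlapped the other constructs. The other 9 libraries ran from 4.58 to 5.03, and control, gag and NC overlapped among themselves. These ratios were not tested.

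*TARS*, the threonyl enzyme (chromosome 5), had the highest level of the cytosolic genes, 221, 176 and 187 in control replicates 1, 2 and 3 and 163 to 238 over the 12 libraries. *FARSB*, the beta subunit of the phenylalanyl enzyme (chromosome 2), had the lowest, 12.4, 10.2 and 8.42 in control and 8.42 to 15.4 over all libraries. Its partner *FARSA*, the alpha subunit (chromosome 19), had a level of 142 to 173, so that the RNAs of subunits that assemble in equal number differed in level per length. The canonical transcript of *FARSB* is 6761 bases long and that of *FARSA* 1811, and with the length of all annotated exons the mean levels were 11.4 and 115. For *FARSB* both lengths are the same, so that its level could not change. Among the mitochondrial genes, *SARS2*, the seryl enzyme (chromosome 19), stood highest at 78.4, 71.3 and 92.6 in control and 63.8 to 92.6 over all libraries. *PARS2*, the prolyl enzyme (chromosome 1), stood lowest at 4.50, 3.76 and 3.78 in control and 2.96 to 7.54 over all libraries. These ranks depend on the length used. With all annotated exons *TARS* stayed highest of the cytosolic genes, but *HARS* was lowest (mean level 6.90). Of the mitochondrial genes *IARS2* was then highest (45.8, with 45.3 for *SARS2*) and *NARS2* lowest (1.64). The canonical transcript of *SARS2* overlaps another annotated gene of the same strand over 77.5% of its exons and that of *VARS2* over all of them, so that their counts are uncertain.

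For 14 amino acids 1 cytosolic and 1 mitochondrial gene can be paired, and the cytosolic RNA was the more abundant in 12 of 14 pairs. The methionyl pair was the most unequal, with a mean level of 131 for *MARS* and 7.09 for *MARS2*, a ratio of 18.5 that ran from 15.7 to 24.7 over the libraries. The exceptions included the cysteinyl pair, with a mean ratio of 0.742 (0.527 to 1.07 over the libraries). With the length of all annotated exons in place of the canonical transcript 12 of 14 pairs again had the higher cytosolic level, but the exceptions were then the isoleucyl and the histidyl pair. *HARS* and *HARS2* lie head to head on chromosome 5, overlap there and have similar sequences, and reads may be split between them.

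**Figure D1:**
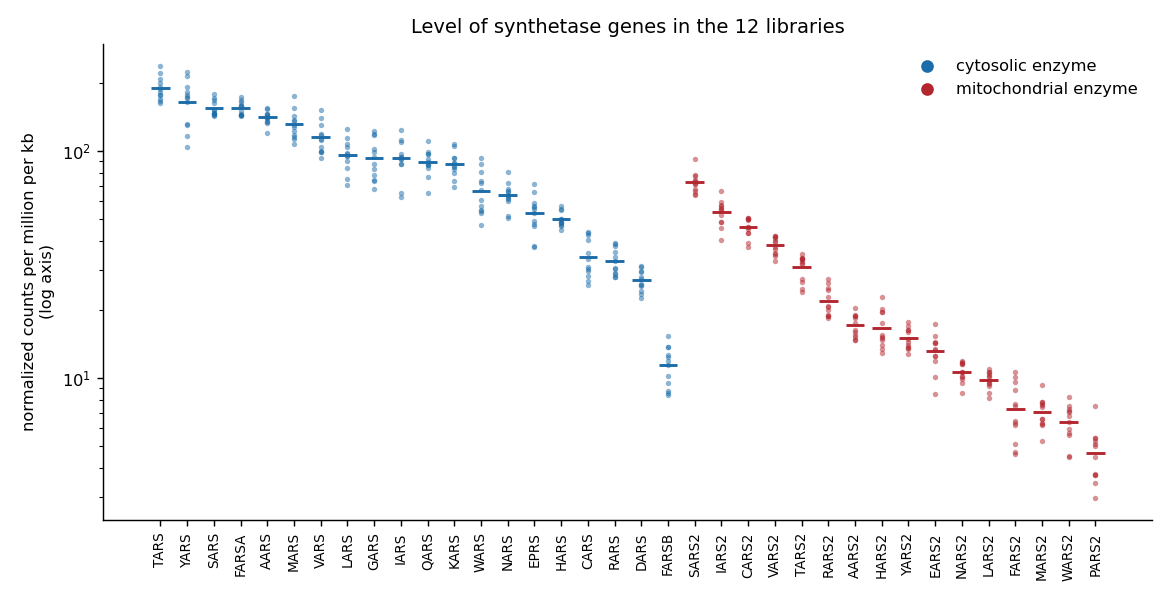
Level of 36 synthetase genes in normalized CPM per kb of canonical transcript (log axis), with 1 point per library and a bar at the mean of the 12 libraries. Cytosolic enzymes (blue) run from 190 for *TARS* to 11.4 for *FARSB* and mitochondrial enzymes (red) from 73.0 for *SARS2* to 4.67 for *PARS2*.

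With gag-pol, the cysteinyl enzyme of the cytosol and the phenylalanyl enzyme of mitochondria fell and the glutamyl enzyme of mitochondria rose, relative to control. *CARS* fell by 31.0%, *FARS2* fell by 26.9% and *EARS2* rose by 35.6%. Beyond these 3, none of the 37 genes was called, so that the called share was near the 11.3% of all 17176 genes called in this comparison. The 37 genes ran both ways, 22 above and 15 below control, with a median log2 fold change of 0.04 against 0.00 over all genes tested. None of the 8 genes of the multisynthetase complex was called by edgeR (2 at an unadjusted p under 0.05), with log2 fold changes from -0.03 to 0.24. DESeq2 called *IARS* and *LARS* of these. Of all 17176 genes tested 4696 had an unadjusted p under 0.05 in edgeR.

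*CARS* (ENSG00000110619.18, chr11:3000922-3057613 on the reverse strand, 23 exons in its canonical transcript) had normalized counts, scaled to the mean library size, of 4471, 3424 and 4178 in control replicates 1, 2 and 3 and 2886, 2756 and 2650.5 with gag-pol. The counts were 4408, 3181 and 3055 with gag and 4520.0, 3651 and 3099.6 with NC. Every gag-pol library was below every library of the other constructs. Relative to control, gag-pol gave a log2 fold change of -0.54 ± 0.10 (SE, Benjamini-Hochberg adjusted p = 0.0014 in the quasi-likelihood test of edgeR). This call was kept when any 1 of the 12 libraries was left out. In pooled cells, a change in fewer cells and a smaller change in every cell cannot be told apart. A noncoding antisense gene overlaps 5.77% of the exons of the canonical *CARS* transcript, and whether strand was used in counting is not given in the sources used here.

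*EARS2* (ENSG00000103356.18, chr16:23520754-23557731 on the reverse strand, 9 exons in its canonical transcript), the mitochondrial glutamyl enzyme, also charges the glutamine tRNA there with glutamate. Its counts were 2328, 2448 and 1662 in control and 2816, 2994 and 2794 with gag-pol, so that all 3 gag-pol libraries lay above all 3 control libraries. They were 2604, 2797 and 1977 with gag and 2621, 3379 and 2435 with NC, and both of these groups overlapped the control. The log2 fold change with gag-pol was 0.44 ± 0.09 (SE, adjusted p = 0.0046). Leaving out any 1 library kept the call, but with all replicate 3 libraries left out the adjusted p was 0.089.

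*FARS2* (ENSG00000145982.13, chr6:5261044-5829192 on the forward strand, 7 exons in its canonical transcript), which works as a single chain in mitochondria, was among the least abundant members. It had counts of 605, 399 and 475 in control and 483, 322 and 292 with gag-pol. The gag libraries had 672, 557 and 408 and the NC libraries 635, 392 and 299. The groups overlapped, while within each replicate number gag-pol was below control. Its log2 fold change with gag-pol was -0.45 ± 0.15 (SE, adjusted p = 0.046). The call was lost without control 1 (adjusted p = 0.064) or 3 (0.34), gag-pol 1 (0.12), 2 (0.11) or 3 (0.12), gag 1 (0.060) or 3 (0.056), or NC 1 (0.052). The number of synthetase genes called with gag-pol was 3 with all libraries, 5 without NC 2 and 1 without all libraries of replicate 3. Over all genes it was 1942, 2445 and 767 in the same order.

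With gag, no synthetase gene passed the threshold in DESeq2 or in edgeR, which called 1.08% of all genes. At an unadjusted p under 0.05 there were 5 in edgeR and 4 in DESeq2, beside 2347 of all 17176 genes tested in edgeR. *QARS*, the cytosolic glutaminyl enzyme, had the smallest p, with a log2 fold change of -0.25 (95% interval -0.42 to -0.09, adjusted p = 0.14). It became the only member called without control 3 (adjusted p = 0.041) or without gag 3 (0.0496). The 37 log2 fold changes ran from -0.25 to 0.29, and their 95% intervals reached from -0.42 to 0.64, so that changes of that size were not detectable for every member. The median over the 37 genes was -0.03 against 0.00 over all genes tested.

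With NC, 7 synthetase genes rose and none fell. They included the isoleucyl (*IARS*), glutamyl-prolyl (*EPRS*), leucyl (*LARS*), lysyl (*KARS*) and tyrosyl (*YARS*) enzymes of the cytosol and the glutamyl enzyme of mitochondria (*EARS2*). The rises were modest, from 19.6% for *KARS* to 31.4% for *EARS2*. The 7 of 37 called compare with 11.2% of all genes called in either direction, and with 6.04% called higher. The 30 other synthetase genes did not pass the threshold.

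Of the 8 enzymes in the multisynthetase complex, 4 were among the 7 (*EPRS*, *IARS*, *LARS* and *KARS*), as was 1 of the 12 other cytosolic genes, *YARS*. None of the 8 complex genes had a log2 fold change below 0, with a median of 0.19. The median was 0.05 for the other cytosolic genes, 0.07 for the mitochondrial genes and 0.00 for all genes tested. *QARS*, *MARS*, *RARS* and *DARS*, the 4 complex enzymes that were not called, had log2 fold changes of 0.13, 0.07, 0.00 and 0.09. The 12 synthetases on the list of ATF4 targets had 4 called and a median of 0.17, and the 8 other cytosolic genes 1 called and a median of 0.06. By the structural class of the catalytic domain, class I genes had 4 of 18 called (median 0.12) and class II genes 2 of 18 (median 0.08), with *EPRS*, which joins a domain of each class, counted apart. Of the 7 genes with the ATF4 element printed above, only *IARS* was called with NC. *LARS* and *YARS*, also called with NC, had no promoter window and could not be searched for the element.

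*EPRS* (ENSG00000136628.18, chr1:219968600-220046530 on the reverse strand, 32 exons in its canonical transcript) had counts of 10399.5, 9777 and 6909 in control replicates 1, 2 and 3 and 12088, 13067 and 8684 with NC. The gag-pol libraries had 10146, 10794 and 8528 and the gag libraries 10436, 8998 and 6964. Replicate 3 was the lowest library in every construct, so that the groups overlapped, and NC was above control within each replicate number. NC changed it by 0.32 ± 0.08 on the log2 scale (SE, adjusted p = 0.013 in edgeR's quasi-likelihood test), with an adjusted p of 0.052 without control 2, 0.078 without control 3 and 0.059 without NC 2.

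*IARS* (ENSG00000196305.19, chr9:92210207-92293854 on the reverse strand, 34 exons in its canonical transcript) had counts of 15471, 16408 and 10556 in control and 18526, 20901 and 14816 with NC. It had 15882, 18755 and 14772 with gag-pol and 15522, 15875 and 10984 with gag. Here too NC 3 lay within the range of control, and each NC library exceeded the control of its number. The log2 fold change was 0.36 ± 0.08 (SE, adjusted p = 0.0076), and without control 3 the adjusted p was 0.064.

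*LARS* (ENSG00000133706.20, chr5:146110566-146182696 on the reverse strand, 32 exons in its canonical transcript) is also known as a leucine sensor upstream of mTORC1. Its counts were 16211, 18629 and 12689.7 in control and 19254, 22275 and 17329 with NC. With gag-pol they were 17022, 20314 and 17061 and with gag 15049, 17530.0 and 13490.4. NC and control overlapped across replicate numbers but not within them. Against control the log2 fold change was 0.32 ± 0.08 (SE, adjusted p = 0.012), with an adjusted p of 0.096 without control 3, 0.051 without NC 1 and 0.053 without NC 3. *KARS* had a log2 fold change of 0.26 ± 0.08 (SE, adjusted p = 0.030), and its call was lost without control 2 (0.081) or 3 (0.17) and without NC 1 (0.079) or 2 (0.13).

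*YARS* (ENSG00000134684.13, chr1:32775237-32818031 on the reverse strand, 13 exons in its canonical transcript), whose protein can be cleaved to cytokine-like fragments, had counts of 16238, 15806 and 10709 in control and 19723, 20358 and 12050.0 with NC. The gag-pol libraries had 15652, 16778 and 11939.7 and the gag libraries 17548, 15071 and 9536. Its replicate 3 libraries were the lowest in all 4 constructs. With NC its log2 fold change was 0.27 ± 0.08 (SE, adjusted p = 0.036). This was the least secure of the 7 calls, with an adjusted p of 0.087, 0.12 and 0.086 without control replicates 1, 2 and 3 and of 0.10, 0.12 and 0.057 without NC replicates 1, 2 and 3.

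*EARS2*, with the counts given above, had a log2 fold change of 0.39 ± 0.09 (SE, adjusted p = 0.010) with NC, and the adjusted p was 0.095 without control 3 and 0.051 without NC 3.

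*AARS*, the alanyl enzyme, was the only member whose 3 NC libraries all lay above all 3 control libraries. The counts were 18665, 18015 and 18759 in control and 19951, 19784 and 18863 with NC. Its log2 fold change of 0.08 ± 0.08 (SE, adjusted p = 0.54) did not pass the threshold, and it is named here after its values were seen. The share of all genes tested with no overlap of NC and control was not computed.

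The number of synthetase genes called with NC rested on single libraries. It was 7 with all libraries, 4 without control 2, 0 without control 3, 3 without NC 1, 3 without NC 2 and 4 without NC 3. The number over all genes fell as well, from 1922 with all libraries to 1177, 367, 966, 1490 and 823 in the same order. The 7 called genes had longer canonical transcripts (median 4483 bases) of lower GC content (median 43.7%) than the 30 others (2655.5 bases and 51.4%), and the same 7 were called after a trend on GC content and length was removed, an alternative chosen after seeing the data.

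**Figure D2:**
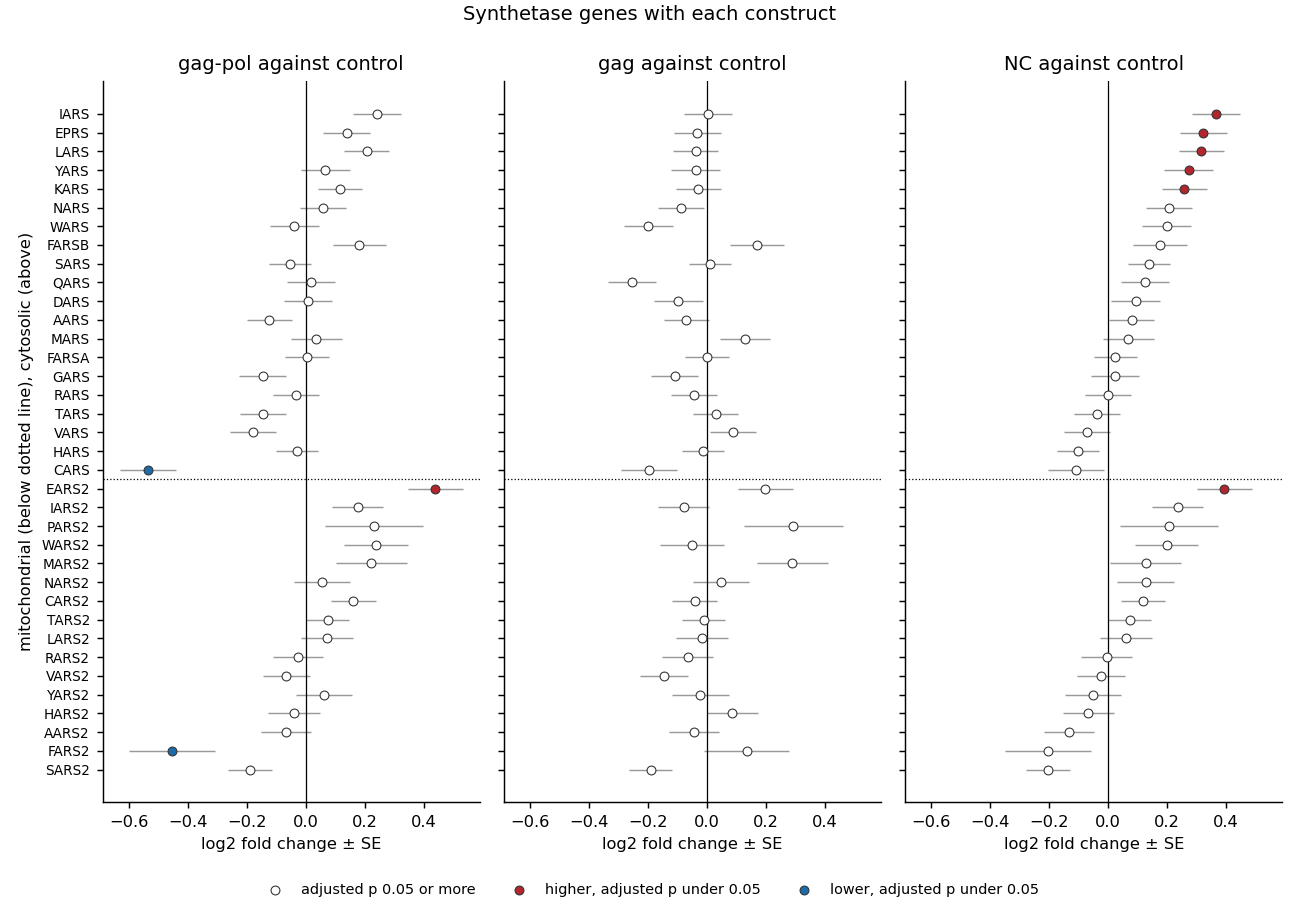
Log2 fold change against control of 36 synthetase genes with gag-pol, gag and NC (points, bars show the standard error), cytosolic genes above the dotted line and mitochondrial genes below it. Filled points mark an adjusted p under 0.05, of which there are 3 for gag-pol, 0 for gag and 6 for NC, the last all to the right of 0.

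**Figure D3:**
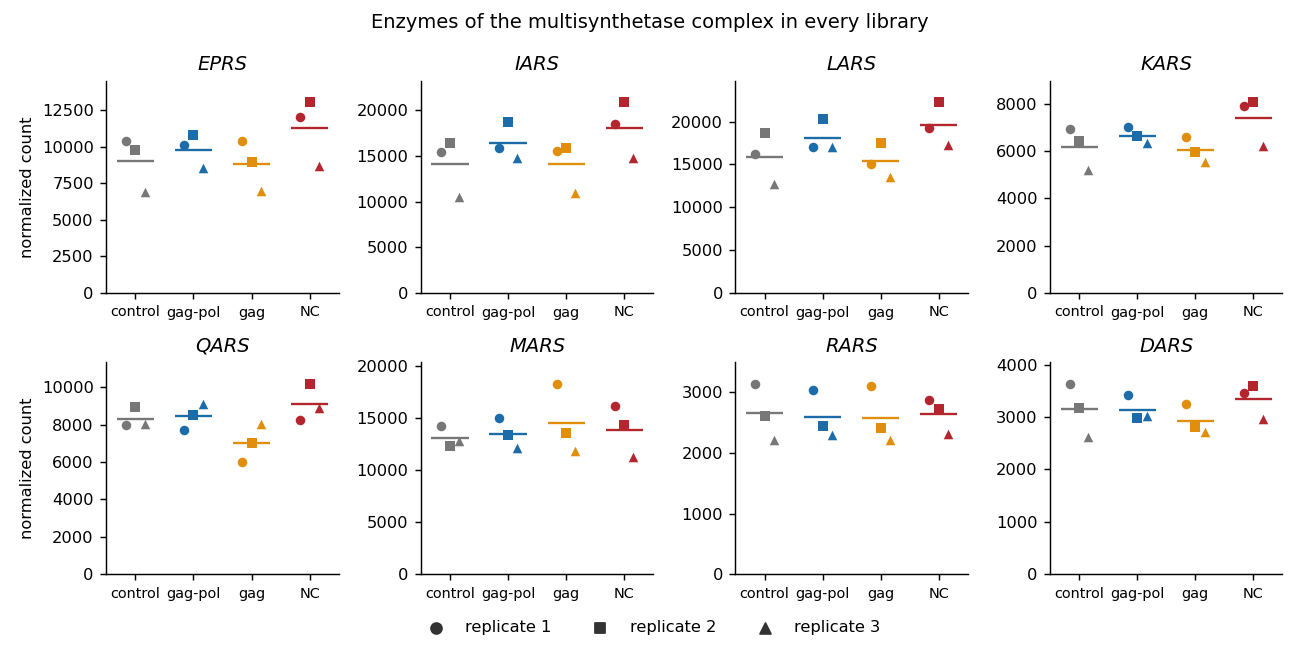
Normalized counts of the 8 enzymes of the multisynthetase complex in each of the 12 libraries, with 1 panel per gene, a symbol for each replicate number and a bar at the mean of the 3 libraries of a construct. The NC mean is the highest of the 4 for *EPRS*, *IARS*, *LARS*, *KARS*, *QARS* and *DARS*, and replicate 3 (triangles) is low in most panels except *QARS*.

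Between gag-pol and gag, which differ by the pol part of the protein, 4 synthetase genes were called, against 6.46% of all genes. *QARS* was higher with gag-pol, and *FARS2*, *CARS* and *VARS*, the cytosolic valyl enzyme, were lower. The log2 fold changes were 0.27 ± 0.08 (SE, adjusted p = 0.045) for *QARS* and -0.59 ± 0.15 (adjusted p = 0.018) for *FARS2*. They were -0.34 ± 0.10 (adjusted p = 0.034) for *CARS* and -0.27 ± 0.08 (adjusted p = 0.039) for *VARS*. *CARS* was lower in every gag-pol library than in every gag library, while the other 3 genes overlapped. The median over the 37 genes was 0.04 against -0.01 over all genes tested.

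None of these 4 calls was kept in all of the fits that left out 1 library. The count was 0 without gag-pol 1, gag-pol 3, gag 1 or gag 2, and it was 2 without control 2, gag-pol 2, gag 3 or NC 1. It was 7 without control 3. Over all genes 1109 were called with all libraries, and 565, 130, 122 and 473 without gag-pol 1, gag-pol 3, gag 1 and gag 2. Without control 3 that number was 1849. Over these fits the adjusted p reached 0.26 for *QARS*, 0.13 for *FARS2*, 0.24 for *CARS* and 0.20 for *VARS*.

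Against gag, NC had the most synthetase genes called of the comparisons between single constructs, 10, and all were higher with NC. The called share of all genes was 16.9%, and 8.76% were called higher. Of the 10, 8 were cytosolic, *WARS*, *QARS*, *IARS*, *EPRS*, *LARS*, *YARS*, *NARS* and *KARS*, and 2 were mitochondrial, with *IARS2* among them. The complex held 5 of them, with a median over its 8 genes of 0.32 against -0.01 over all genes tested. The median was 0.11 for the 12 other cytosolic genes and 0.08 for the mitochondrial genes.

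*WARS* (ENSG00000140105.18, chr14:100333790-100376805 on the reverse strand, 11 exons in its canonical transcript), the tryptophanyl enzyme and a known interferon-induced gene, had counts of 7323, 5443 and 4659 in gag replicates 1, 2 and 3 and 9250.2, 8025 and 5690.1 with NC. The control libraries had 8725, 6055 and 5288 and the gag-pol libraries 7159.9, 6657 and 5407. NC exceeded gag within each number, and the groups overlapped. NC against gag gave a log2 fold change of 0.40 ± 0.08 (SE, adjusted p = 0.0030), and the call was kept when any 1 library was left out.

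*QARS* (ENSG00000172053.18, chr3:49095932-49105130 on the reverse strand, 24 exons in its canonical transcript) had counts of 5979, 7042 and 8004 with gag and 8226, 10185 and 8880.0 with NC, so that all NC libraries were above all gag libraries. The control libraries had 7986, 8942 and 8029 and the gag-pol libraries 7729, 8522 and 9089.8. Replicate 1 was low for this gene in all 4 constructs, unlike most members. For NC against gag the log2 fold change was 0.38 ± 0.08 (SE, adjusted p = 0.0037), with an adjusted p of 0.051 without gag 1.

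*IARS2* (ENSG00000067704.10, chr1:220094132-220148041 on the forward strand, 23 exons in its canonical transcript), the mitochondrial isoleucyl enzyme, had counts of 6446, 6439.9 and 6068 with gag and 7939.8, 8806 and 6918 with NC. The control libraries had 7414, 7395 and 5351 and the gag-pol libraries 7311, 7633 and 7623. Both NC and gag-pol lay above gag with no overlap. The log2 fold change of NC against gag was 0.31 ± 0.09 (SE, adjusted p = 0.016), and the call was lost without gag 1 (0.087) or 2 (0.097) and without NC 1 (0.054) or 2 (0.069). *NARS* (ENSG00000134440.12, chr18:57600656-57622213 on the reverse strand, 14 exons in its canonical transcript), the asparaginyl enzyme, had counts of 6556, 6272 and 5279 with gag and 7488, 8385 and 6359 with NC. It had 7025, 6902 and 5368 in control and 6644, 6842 and 6462 with gag-pol. NC and gag overlapped only through NC 3. Its log2 fold change was 0.29 ± 0.08 (SE, adjusted p = 0.013), with an adjusted p of 0.072 without gag 2 and 0.065 without NC 2.

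The genes already described against control had log2 fold changes against gag of 0.36 ± 0.08 for *IARS* (SE, adjusted p = 0.0050), 0.36 ± 0.08 for *EPRS* (0.0048) and 0.35 ± 0.08 for *LARS* (0.0039). These 3 calls were kept when any 1 library was left out. Values were 0.31 ± 0.08 for *YARS* (SE, adjusted p = 0.013) and 0.29 ± 0.08 for *KARS* (0.012). The *YARS* call was lost without gag 2 (adjusted p = 0.081) or 3 (0.080) and without NC 1 (0.059) or 2 (0.057). The *KARS* call was lost without gag 1 (0.062) or 2 (0.081) and without NC 2 (0.066). The count of 10 became 6 without gag 1, 5 without gag 2 and 5 without NC 2. Over all genes 2898 were called with all libraries, and 940, 1658 and 2182 in these 3 fits. The comparisons of NC with control and of NC with gag share the NC libraries, so that their calls are not independent.

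**Figure D4:**
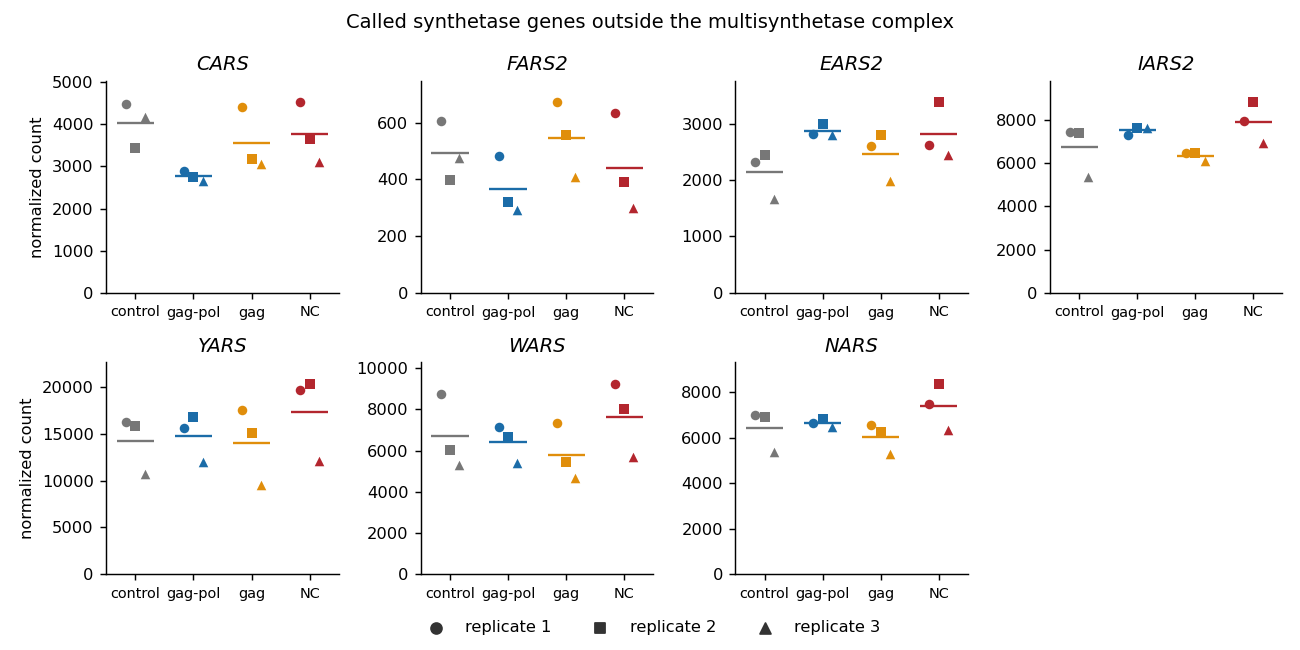
Normalized counts in each of the 12 libraries for 7 genes outside the multisynthetase complex that were called in a comparison of constructs, with symbols and bars as in the plot of the complex enzymes. The gag-pol libraries of *CARS*, 2650.5 to 2886, lie below all libraries of the other constructs, and for *YARS* the replicate 3 libraries (triangles) lie lowest in every construct.

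Between NC and gag-pol no synthetase gene passed the threshold in edgeR, where 0.0873% of all genes were called. At an unadjusted p under 0.05 there were 7 in edgeR, all cytosolic and all higher with NC, and 7 in DESeq2. In edgeR 1704 of all 17176 genes tested were under this unadjusted cut-off. *CARS* came closest, with a log2 fold change of 0.43 (95% interval 0.23 to 0.62, adjusted p = 0.060), and every NC library lay above every gag-pol library. DESeq2 called *CARS* (adjusted p = 0.012), and so did edgeR without control 3 (0.023), gag-pol 3 (0.030) or NC 3 (0.043). Of the 20 cytosolic genes 18 had a log2 fold change above 0, with a median of 0.12, and of the 17 mitochondrial genes 6, with a median of -0.02, against 0.02 over all genes tested. The 37 values ran from -0.11 to 0.43 and their 95% intervals from -0.37 to 0.62.

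With the gag-pol and NC libraries set together against the gag and control libraries, 16 synthetase genes were called, 13 higher and 3 lower. Of all genes 24.7% were called, and 13.1% were called higher. Those higher included *IARS*, *LARS*, *EPRS*, *KARS* and *QARS* of the complex, *WARS*, *YARS* and *NARS* among the other cytosolic genes, and, among the genes of mitochondrial enzymes, *EARS2*, *IARS2*, *WARS2* and *CARS2*. Those lower were *CARS*, *FARS2* and *VARS*. The cysteinyl enzymes had opposite signs, with a log2 fold change of -0.22 ± 0.07 for *CARS* (SE, adjusted p = 0.018) and 0.16 ± 0.05 for *CARS2* (adjusted p = 0.030). The *CARS* call was lost without control 3, gag-pol 1, gag 1 or NC 3 (adjusted p up to 0.085), and the *CARS2* call without control 3, gag-pol 1 or 3, NC 1 or any 1 of the gag libraries. The mean counts of *CARS* were 2764 with gag-pol, 3757 with NC, 3548 with gag and 4024 in control, so that the gag-pol mean was below the others and the NC mean was above that of gag. *IARS*, *LARS*, *EPRS*, *KARS*, *EARS2*, *IARS2* and *FARS2* were among the calls kept when any 1 library was left out. Both the cytosolic and the mitochondrial gene rose for isoleucine and for tryptophan, but 1 or both of the tryptophanyl calls were lost without control 2, any 1 of the gag-pol libraries, control 3, gag 2, NC 1 or NC 2. The median of the complex genes was 0.20, and that of all 37 was 0.07 against -0.01 over all genes tested. Without gag 2 the count was 10. Over all genes 4244 were called with all libraries and 3352 without gag 2.

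The scaffold genes *AIMP1*, *AIMP2* and *EEF1E1* were not called in any of the 7 comparisons of constructs in edgeR, with none of the 3 at an unadjusted p under 0.05 in any comparison with control. The mitochondrial partners *GATB*, *GATC* and *QRSL1*, which form the glutamyl-tRNA amidotransferase, and *MTFMT*, which formylates the initiator tRNA, were not called either, with 3 of the 4 at an unadjusted p under 0.05 with NC. Of all 17176 genes tested 4650 were under this unadjusted cut-off with NC. Among genes that edit mischarged tRNA or resemble synthetases, 4 of 5 listed were tested. *DTD1*, which removes D-amino acids from tRNA, rose with NC (log2 fold change 0.38 ± 0.09, SE, adjusted p = 0.011) and with gag-pol (0.28 ± 0.09, 0.044). *ANKRD16*, which acts with the alanyl enzyme in proofreading, rose with gag-pol (0.45 ± 0.13, 0.023).

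Other genes of the amino acid response, 25 from textbook knowledge and none of them a synthetase, were set beside the synthetases. With NC 10 rose and 2 fell, where 11.2% of all genes were called and 6.04% were called higher, with a median log2 fold change of 0.22 against 0.00 over all genes tested. Those that rose included *PYCR1* of proline synthesis (0.62 ± 0.10, SE, adjusted p = 8.5e-04), *PSAT1* of serine synthesis (0.56 ± 0.12, 0.010) and *ASNS*, asparagine synthetase (0.47 ± 0.10, 0.0069). *SLC3A2*, the heavy chain of amino acid transporters, and *SESN2* fell, by 0.49 and 0.43 on the log2 scale. With gag-pol 6 rose and 2, *NUPR1* and *SLC3A2*, fell, where 11.3% of all genes were called, and the median was 0.13 against 0.00 over all genes tested. With gag only *ATF3* (1.02 ± 0.12, 7.7e-04), *CEBPB* (0.48 ± 0.10, 0.013) and *DDIT3* (0.39 ± 0.09, 0.023) rose, all transcription factors of the stress response. Of all genes 1.08% were called with gag, and the median of the 25 genes was 0.00. *DDIT3* lies on the strand opposite to *MARS* and overlaps 2.32% of the exons of its canonical transcript. *ATF4* itself was not called against control, where its log2 fold change was 0.05 for gag-pol, 0.09 for gag and -0.04 for NC. Whether ATF4 had a part in the synthetase values was not tested.

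Replicate number moved the synthetase genes more than the constructs did. Across constructs, 28 of the 37 genes were lower in replicate 3 than in replicate 1 and 1 was higher. The called share of all genes was 41.6%, and 21.0% were called lower. The median log2 fold change of the 37 genes was -0.29 against -0.01 over all genes tested, with 15 of 20 cytosolic and 13 of 17 mitochondrial genes lower. For 27 of the 37 genes all 4 libraries of replicate 3 lay below all 4 of replicate 1. How many of all genes tested did so was not counted. *QARS* was the one gene called higher, at 0.20 ± 0.07 (SE, adjusted p = 0.029).

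Among the largest differences, *FARS2* had a log2 fold change of -0.71 ± 0.13 (SE, adjusted p = 1.0e-04), with counts of 483 to 672 in replicate 1 and 292 to 475 in replicate 3. *PARS2* had -0.69 ± 0.15 (adjusted p = 6.1e-04), with counts of 399 to 667 and 262 to 334. Neither gene had overlapping ranges. *AARS*, by contrast, had 0.01 ± 0.07 (adjusted p = 0.91) and *SARS2* 0.13 ± 0.06 (adjusted p = 0.11).

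Between replicates 2 and 1, 16 synthetase genes were called, 2 higher in replicate 2 (*LARS* and *QARS*) and 14 lower. Of all genes 30.5% were called, and 14.7% were called lower. *FARS2*, *VARS* and *HARS2* changed the most, at -0.54 ± 0.13 (SE, adjusted p = 0.0025), -0.40 ± 0.07 (1.2e-04) and -0.38 ± 0.08 (7.1e-04). The count was 10 without control 2 and 9 without gag 1. Over all genes 5243 were called with all libraries, 3263 without control 2 and 3472 without gag 1. *VARS* had counts of 18334 to 23389 in replicate 1 and 14377 to 17315 in replicate 2, and *HARS2* 1814 to 2101 and 1397 to 1623, with no overlap for either gene.

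Between replicates 3 and 2, 18 were called, 1 higher in replicate 3 (*SARS2*) and 17 lower. Of all genes 27.1% were called, and 14.1% were called lower. *YARS* changed the most, at -0.62 ± 0.07 (SE, adjusted p = 3.6e-06), with counts of 15071 to 20358 in replicate 2 and 9536 to 12050.0 in replicate 3. *IARS* followed at -0.50 ± 0.07 (2.7e-05). The other amino acid response genes had 16 of 25 lower and none higher in replicate 3 than in replicate 2 in edgeR.

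The share of each synthetase gene's variance over the 12 libraries, on the log2 scale, was split between replicate number, construct and the rest. This split was not made for all genes tested. Replicate number held the larger share in 32 of 37 genes, with a median of 67.0% over the cytosolic and 64.8% over the mitochondrial genes, against 22.2% and 14.4% for the construct. It was highest for *TARS2*, the mitochondrial threonyl enzyme, at 92.8%, and for *RARS*, the arginyl enzyme, at 91.6%. The 5 exceptions were *AARS* (construct share 67.9%), *QARS* (56.3%), *CARS* (54.2%), *IARS2* (47.6%) and *EARS2* (44.5%). The construct share of *RARS* was 1.10%. What differed between the passages was not recorded in the labels, and its part in these values cannot be told apart from the replicate number.

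**Figure D5:**
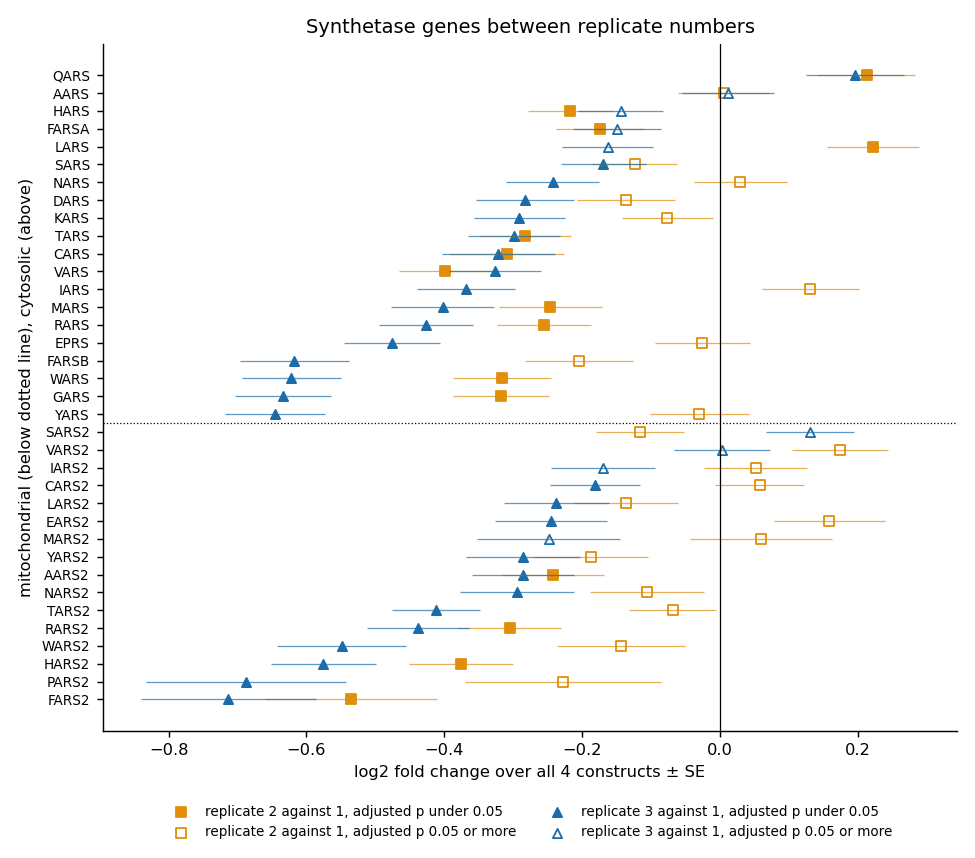
Log2 fold change of 36 synthetase genes between replicate numbers over all 4 constructs, replicate 2 against 1 (squares) and replicate 3 against 1 (triangles), with bars for the standard error and filled symbols for an adjusted p under 0.05. Of the triangles 28 are filled, and all of these but that of *QARS* lie to the left of 0.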

How the data were processed

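RNA from 12 libraries of transfected HEK293 cells was analysed, 3 for each of 4 constructs. Per the labels, the authors aligned reads to GRCh38.p13 with STAR 2.7.3 and SAMtools 1.8 and counted them per gene with featureCounts, and they deposited raw counts. The annotation release, strand setting and handling of reads with several positions are not given in the sources used here. All 12 columns were used and the totals are raw counts summed over genes.

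Counts were tested with edgeR 4.0.16 in R 4.3.3 (TMM normalization, filterByExpr by construct with a minimum count of 10 and a minimum total of 15, robust quasi-likelihood F test). The model held construct and replicate number over the 12 libraries, with 6 residual degrees of freedom. P-values were adjusted by the Benjamini-Hochberg method over the 17176 genes tested, and the threshold was 0.05. The standard error is the log2 fold change divided by the square root of F. To give normalized counts, each count was divided by its effective (TMM) library size and brought to the mean total of the libraries. The replicate number was kept as a block because, after the construct means were removed, the 18 pairs of libraries with the same number had correlations from 0.205 to 0.697. The 36 pairs with different numbers had correlations from -0.647 to 0.109, but these are pushed down by the removal of the means. Libraries of one construct differed beyond sampling noise (chi-square per degree of freedom of 33.9 to 113), and the biological coefficient of variation was 10.7%.

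Gene positions and transcript lengths are from GENCODE release 44, and promoter windows from RefSeq. The scripts were tested on simulated data with known changes. Values in every library are given for the 12 genes with the largest log2 fold changes among those called between single constructs, for the highest and lowest gene of each compartment by level per length, and for the 3 genes with the largest change between replicate numbers, where ranges over 4 libraries stand in for single values. Counts, medians and shares cover all 37 genes, but 1 gene is not reported here by name or drawn. The genes followed, the gene lists and the tests were chosen with earlier results of these data known. Alternatives were DESeq2 1.42.0, other normalization factors, no filter, no replicate number, no construct term, only the 6 libraries compared, each library or replicate number left out, and, chosen after seeing the data, removal of a GC and length trend.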

Additional observations from a re-analysis of the deposited data

How the results depend on the processing

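Of the synthetase genes whose calls are named, none reversed direction under any alternative tried, and the normalization factors changed no count of calls between constructs by more than 1.5 times. The replicate block decided the calls between constructs. With no replicate block the number of synthetase genes called was 0 in all 6 comparisons of single constructs and 0 in the pooled comparison of gag-pol and NC with the other groups. Of all 17176 genes at most 2 were then called in any of these comparisons, so that the loss was not particular to synthetase genes. With no construct term the number of synthetase genes called was 7 in place of 16 between replicates 2 and 1. It was 23 in place of 29 between replicates 3 and 1 and 9 in place of 18 between replicates 3 and 2. DESeq2 called 5 in place of 3 with gag-pol and 1 in place of 0 between NC and gag-pol, where no filter and a fit of only the 6 libraries compared also gave 1. That fit gave 10 in place of 4 between gag-pol and gag, where it called 2628 of 16517 genes in place of 1109 of 17176. A GC and length correction, chosen after seeing the data, kept all calls between constructs and added *LARS* between gag-pol and gag. It kept 22 of 29 calls between replicates 3 and 1, 14 of 16 between replicates 2 and 1 and 17 of 18 between replicates 3 and 2. For replicate 3 against 1 the count was then 23, and with upper-quartile factors it was 34. With 1 library or 1 replicate number left out, the count was between 1 and 5 for gag-pol, between 0 and 1 for gag and between 0 and 8 for NC. It ran from 0 to 7 between gag-pol and gag, from 2 to 10 between NC and gag, from 0 to 4 between NC and gag-pol and from 8 to 16 in the pooled comparison. Between replicates it ran from 9 to 19 (2 against 1), from 24 to 31 (3 against 1) and from 14 to 19 (3 against 2). Over all genes the number called moved too, for NC against control from 367 without control 3 to 2369 without gag-pol 3. The causes of the changes were not tested.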
